A study of Arabidopsis thaliana with 32 samples.

Results

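The sites described here are those at which elongating RNA polymerase II (RNAPII) was called different between tfiis-1 and wild-type Col-0 seedlings of Arabidopsis thaliana after 30 min of heat shock. They are all the summits, single base pairs, of the authors' 2 lists for 30 min, with repeated lines counted once: 8968 summits of the 29485 deposited for 4 times. Of these, 8072 were called higher in tfiis-1 (tfiis-1-higher) and 896 higher in Col-0 (Col-0-higher). The signal is ChIP-seq with an antibody against the Ser2-phosphorylated C-terminal domain of the polymerase (S2P RNAPII). The plants were whole seedlings raised in vitro, 14 days after stratification, so cell types were not separated. At 30 min each genotype had 3 ChIP libraries, described in the series' design as biological triplicates, and 1 input library. The other times (0 min, 10 min and 3 h) had the same numbers, 32 libraries in all. The groups used are Col-0 and tfiis-1 with 30 min of heat shock, set beside the lists of the same genotypes at the other times. The tfiis-1 line is 1 mutant line, and the labels give neither its lesion nor the temperature of the heat shock.

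TFIIS is an elongation factor that binds RNAPII that has slid backwards on its template and stimulates cleavage of the nascent RNA in the polymerase's active site, which lets transcription resume. Phosphorylation of Ser2 of the C-terminal domain is carried by polymerase inside transcribed genes and is typically highest towards their 3′ ends, where it helps to recruit factors for RNA cleavage and polyadenylation. Heat shock switches transcription towards chaperone genes under heat shock transcription factors and lowers that of many other genes.

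The lists give the site, its gene and strand, and for the Col-0-higher sites a score, but no value per library. A level in each sample, the depth of the libraries and the spread between replicates could therefore not be computed, and no call has a replicate check here. Intervals below are exact (Clopper-Pearson) or order-statistic 95% intervals, which cover counting error only. Summits and genes are not replicates, since neighbouring summits share a gene and all share the same libraries. The gene of TFIIS itself (AT2G38560, 2153 bp) held no summit in any list at any time, so the lists do not check the genotype.

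The tfiis-1-higher summits were 90.0% of the summits at 30 min (89.37 to 90.62%). They lay in 4550 genes, 16.6% of the 27444 nuclear protein-coding genes, and the Col-0-higher summits in 867 genes, 3.16% of them. Both directions were called in 404 genes (1.47% of all), and 5013 genes (18.3%) had at least 1 summit. With only the 50% of Col-0-higher summits that had the highest scores, 256 genes were in both. The 404 genes were 46.6% of the Col-0-higher genes (43.24 to 49.98%) and 8.88% of the tfiis-1-higher genes (8.07 to 9.74%). The summits spread over the 5 nuclear chromosomes nearly as the genes do. Chromosome 1, with 26.1% of the genes, held 26.1% of the tfiis-1-higher and 27.3% of the Col-0-higher summits. The widest gap was on chromosome 4, with 15.2% of the genes and 18.3% of the Col-0-higher summits.

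The 2 directions marked different parts of the gene. Position is given along transcription, with 0 at the annotated start and 1 at the annotated end. For tfiis-1-higher summits the median was 0.51 (0.50 to 0.52), with quartiles of 0.32 and 0.71, and 72.8% of them lay between 0.2 and 0.8. Few lay at an edge: 0.764% were within 200 bp of the start and 4.02% within 200 bp of the end. For Col-0-higher summits it was 0.95 (0.94 to 0.96), a median of 136 bp before the gene end. Of the 936 Col-0-higher summits in genes (a summit in overlapping genes counts in each), 594 or 63.5% lay in the last 10% of the gene and 59.9% within 200 bp of its end. With the gene cut into 10 equal stretches, the tfiis-1-higher share was 2.82% in the first, 13.8% in the fifth and 7.06% in the last. The Col-0-higher share was between 1.71% and 4.91% in each of the first 8 stretches, and the first, at 4.91%, was the highest of those 8.

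**Figure D1:**
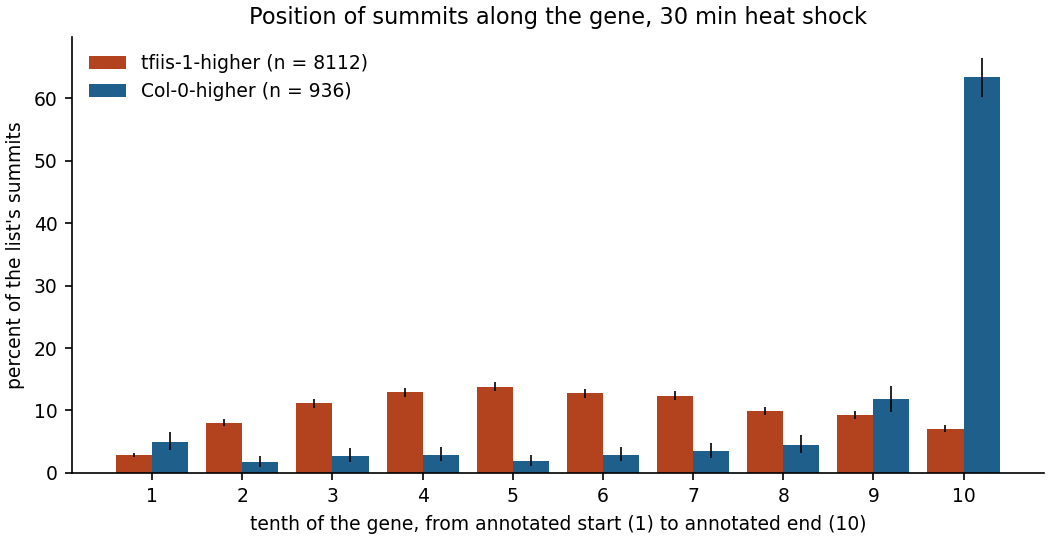
Percent of each list's summits at 30 min (vertical axis) in each of 10 equal stretches of the gene (horizontal axis), for 8112 tfiis-1-higher and 936 Col-0-higher summits in genes, with exact 95% intervals as lines. The tfiis-1-higher bars form a broad hump over the gene body, and the last stretch alone holds 63.5% of the Col-0-higher summits.

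Repeated summits along a gene were common in the tfiis-1-higher direction. Of its 4550 genes, 2118 (46.5%, 45.1 to 48.0%) held at least 2 summits, against 52 of 867 Col-0-higher genes (6.0%, 4.51 to 7.79%). Neighbouring tfiis-1-higher summits of a gene were a median of 897.5 bp apart (quartiles 621 and 1296 bp), and only 5 of 3562 such gaps were under 300 bp. In genes with at least 2 summits the first lay at a median position of 0.28 and the last at 0.75. In genes with 1 summit it lay at 0.56.

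Genes of the tfiis-1-higher list and of both lists were long. The median length was 2978.5 bp for tfiis-1-higher genes, 2781 bp for Col-0-higher genes and 3845 bp for genes in both lists, against 2078 bp over all protein-coding genes. The 463 genes that were Col-0-higher alone had a median of 2226 bp, close to that of all genes. Of genes up to 1000 bp, 0.822% were tfiis-1-higher and 1.12% were Col-0-higher. Among genes over 8000 bp, 54.0% were tfiis-1-higher (48.1 to 59.9%) and 16.7% Col-0-higher (12.6 to 21.6%). The share of Col-0-higher genes that were also tfiis-1-higher was 0% among genes up to 1000 bp, 41.8% among genes of 2000 to 3000 bp and 83.3% among genes over 8000 bp. The lists do not hold the signal level of a gene, so the part of level in these shares was not tested.

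The first tfiis-1-higher summit lay at much the same distance from the start in long genes of any length, while the last Col-0-higher summit kept to the end. The median distance of the first tfiis-1-higher summit from the gene start was 448 bp in genes up to 1000 bp and 1128.5 bp in genes of 2000 to 3000 bp. In the 4 longer classes it ranged only from 1340 to 1483 bp, and in genes over 8000 bp it was 1340 bp. The last tfiis-1-higher summit of those longest genes was a median of 5082 bp short of the gene end. The last Col-0-higher summit was a median of 102 bp from the end in genes over 8000 bp and 140 bp in genes up to 1000 bp.

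**Figure D2:**
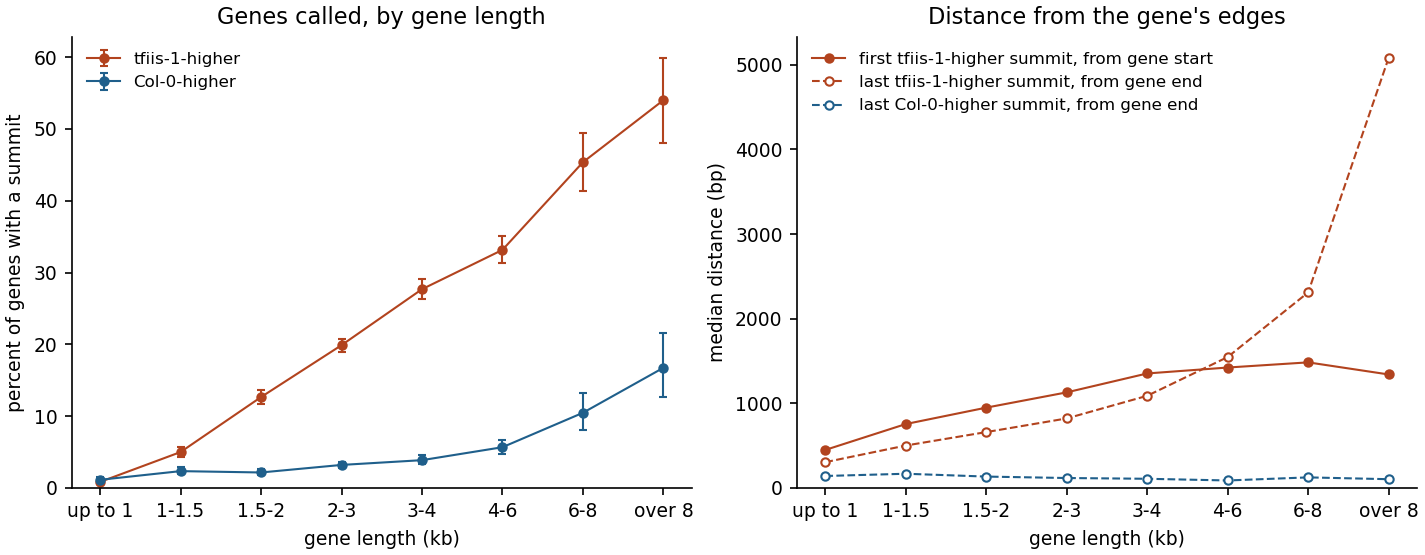
Left, percent of genes with a summit at 30 min in 8 classes of gene length, with exact 95% intervals; right, median distance in bp of the first tfiis-1-higher summit from the gene start and of the last summit of each list from the gene end. The share of called genes is higher in longer genes in both lists, the first tfiis-1-higher summit levels off between 1340 and 1483 bp in genes over 3000 bp, and the last Col-0-higher summit stays within 167 bp of the end in every class.

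In a gene called in both directions, the tfiis-1-higher summits came first along transcription. In 396 of the 404 genes (98.0%, 96.1 to 99.1%) every tfiis-1-higher summit lay upstream of every Col-0-higher one, in 8 the order was the reverse, and in 0 the directions alternated (upper limit 0.909%). The facing summits of such a gene were a median of 1238 bp apart, from 175 to 15735 bp, and in 47 genes (11.6%) within 500 bp. In these genes 1.24% of the tfiis-1-higher summits lay in the last 10%, so the order is not independent of where the summits of each list lay. Of the Col-0-higher summits in these genes 84.4% lay in the last 10%, against 46.5% in genes that were Col-0-higher alone. The median score, the authors' value per summit on a scale that is not stated, was 8.24 in the former and 5.74 in the latter. The tfiis-1-higher summits of genes in both lists sat further upstream, at a median of 0.41 against 0.52 in genes that were tfiis-1-higher alone. Genes in both lists were longer, at a median of 3845 bp against 2922.5 bp (tfiis-1-higher alone) and 2226 bp (Col-0-higher alone). Positions differed with length. In genes up to 1000 bp and over 8000 bp the tfiis-1-higher medians were 0.59 and 0.31, and the Col-0-higher ones 0.73 and 0.98. The part of gene length in these differences was not tested.

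**Figure D3:**
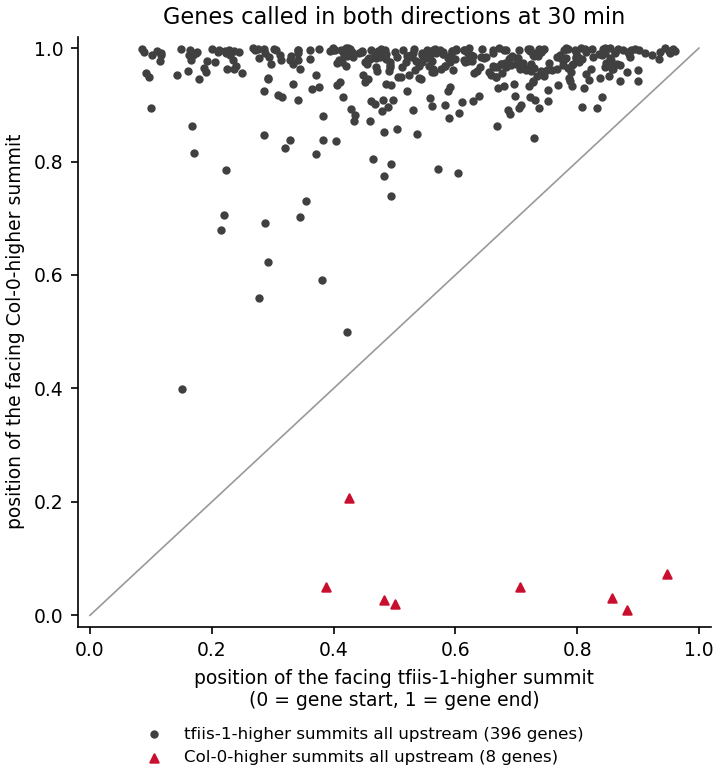
Position of the facing Col-0-higher summit (vertical axis) against that of the facing tfiis-1-higher summit (horizontal axis) in each of the 404 genes called in both directions at 30 min; facing summits are the closest pair of opposite direction, and the grey line marks equal positions. The 396 dark points lie above the line, most near the top edge where the gene ends, and the 8 triangles below it have their Col-0-higher summit at 0.21 or less.

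Single genes show the arrangement. TOR (AT1G50030, TAIR10 chromosome 1, 18522248 to 18539995), the target of rapamycin kinase that couples growth to nutrients, had 3 tfiis-1-higher summits 753, 1482 and 2691 bp from its start and then 9 Col-0-higher summits from 7071 to 17669 bp. Its last Col-0-higher summit, 78 bp before the gene end, had the highest score of the list, 37.6, and no other gene held more than 3 Col-0-higher summits. AT2G36810 (chromosome 2, 15425321 to 15439642) had the same order on a smaller scale, with 4 tfiis-1-higher summits up to 3154 bp and 3 Col-0-higher summits from 10101 to 14251 bp.

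YAK1 (AT5G35980, chromosome 5, 14127960 to 14136351), a protein kinase that acts in growth control downstream of TOR, had 8 tfiis-1-higher summits between 0.08 and 0.89 of the gene. A Col-0-higher summit with a score of 28.5 lay 30 bp before its end. SEX1 (AT1G10760, chromosome 1, 3580830 to 3590928), the glucan water dikinase that starts starch breakdown, also had 8, between 0.08 and 0.84, before a Col-0-higher summit 10 bp from the gene end. The most summits of any gene, 11 tfiis-1-higher ones between 0.09 and 0.73, lay in AT1G58602 (19695 bp), followed by Col-0-higher summits at 0.94 and 0.97. CESA1 (AT4G32410), a cellulose synthase of the primary wall, had 7 between 0.06 and 0.82 and a Col-0-higher summit at 0.94. CCT (AT4G00450), a Mediator subunit gene, had 7 between 0.13 and 0.86 and a Col-0-higher summit at 0.98.

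Other genes with many tfiis-1-higher summits had no Col-0-higher one at 30 min. RLT2 (AT5G44180), a partner of ISWI chromatin remodelers, had 8 between 0.20 and 0.92. GLT1 (AT5G53460), the NADH-dependent glutamate synthase, had 8 between 0.17 and 0.95. RPN1A (AT2G20580), a proteasome regulatory subunit, had 7 that ran from 0.10 to 0.99, so that its last summit lay at the gene end where Col-0-higher summits were usual.

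**Figure D4:**
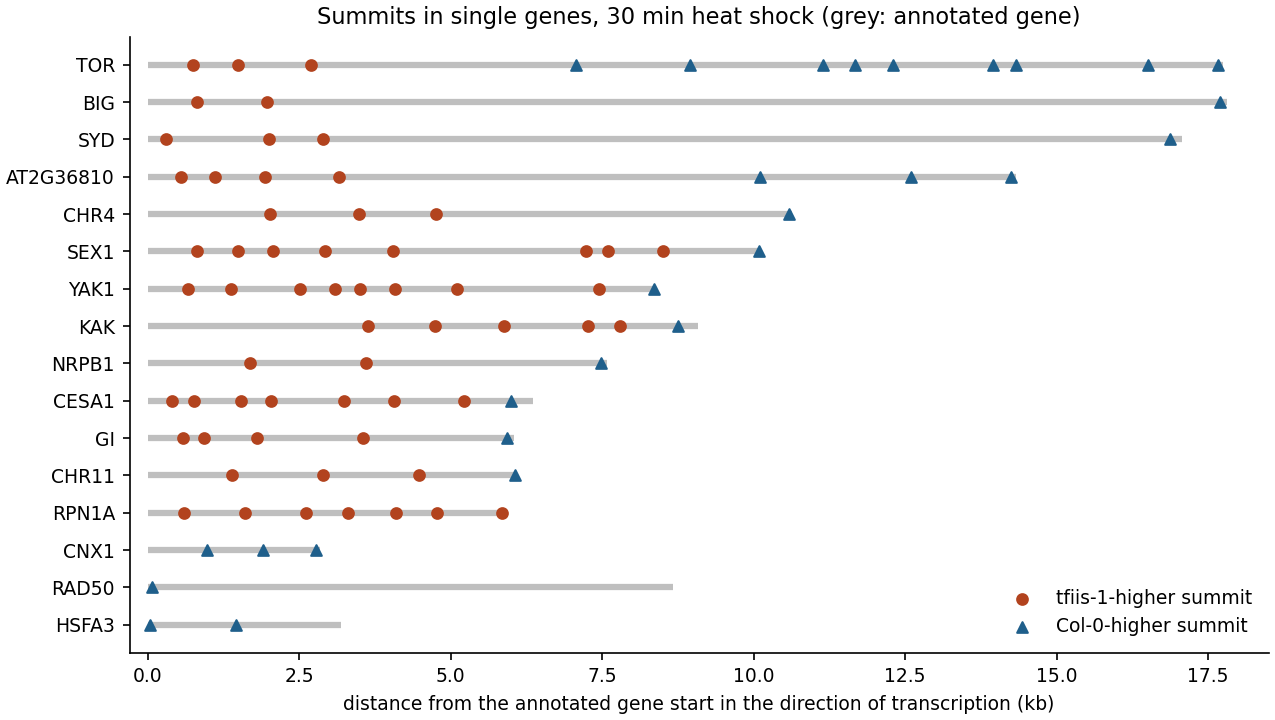
Summits at 30 min along 16 genes, drawn to scale as distance in kb from the annotated start in the direction of transcription; grey bars are the annotated genes, circles tfiis-1-higher and triangles Col-0-higher summits. In TOR, SYD and BIG the circles end within 3 kb of the start, in YAK1, SEX1 and CESA1 they run through the gene body, and RAD50 and HSFA3 have a triangle at the gene start.

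Most Col-0-higher summits at gene starts lay beside the ends of other genes. In the first 10% of genes there were 46 Col-0-higher summits in 46 genes, a median of 64 bp from the start, with a median score of 7.95. For 6 of them the summit lay inside another annotated gene, for 31 another gene lay within 500 bp, and for 9 none did. Of those 31, 27 lay just beyond the end of the other gene and 0 beyond its start, while for 4 the strand of the other gene was not in the lists. Of the 27 neighbouring genes, 19 were tfiis-1-higher at 30 min. Strand was known only for genes of some list, so all 27 were listed at some time. Among the 9113 genes of any list 4550 were tfiis-1-higher at 30 min, and 16.6% of all genes were. The 27 summits had a median score of 10.6 and the other 19 a median of 7.26.

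The highest-scoring of these were listed under genes with well-known roles. RAD50 (AT2G31970, chromosome 2, 13600431 to 13609104), a subunit of the complex that processes DNA double-strand breaks, had a single Col-0-higher summit 65 bp from its start with a score of 32.0, 66 bp beyond the end of GSL03, a glucan synthase-like gene that was itself tfiis-1-higher. It was the only called gene among the 3 members of that repair complex. HSFA3 (AT5G03720, chromosome 5, 971142 to 974326), a heat shock transcription factor, had a summit 33 bp from its start with a score of 24.2, 67 bp beyond the end of CTR1, a kinase of ethylene signalling. HSFA3 had a second one inside the gene at 0.46. DIM1A, an rRNA dimethyladenosine transferase, had its summit 4 bp from the start, 75 bp beyond the end of AT2G47410, which was tfiis-1-higher. At such sites a short distance from 2 genes, the list's gene name does not show which gene's polymerase was measured. Of the 8 genes with the reverse order, 7 had their Col-0-higher summit in the first 10%. In 3 of these, AT3G20620, AT5G23610 and AT4G33945, it lay 150, 95 and 27 bp beyond the end of a neighbour. In the other 4 the strand of the nearest gene was not in the lists.

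Beyond the gene end, Col-0-higher genes were a median of 893 bp from the next annotated gene, tfiis-1-higher genes 721 bp and genes of any list 749 bp. A neighbour lay within 500 bp for 37.4%, 42.8% and 42.4% of them.

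The gene groups were taken from lists of named genes and from words in the annotation. Their shares are read against those of all genes (16.6% for tfiis-1-higher, 3.16% for Col-0-higher) and against genes of the members' length classes. The groups had from 3 to 583 members, many of them few, and no group was tested. The lists do not hold the signal level of a gene, so the part of level in the groups' shares was not tested.

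Heat shock protein genes were called in both directions at 30 min, and those that were Col-0-higher carried the summit at the gene end. Of the 7 HSP90 genes, chaperones for signalling proteins and their relatives in organelles, 0 were tfiis-1-higher (27.8% in their length classes) and 3 were Col-0-higher. The 3 were Hsp89.1 (AT3G07770), SHD (AT4G24190) and CR88 (AT2G04030), the mitochondrial, endoplasmic reticulum and chloroplast members, with summits 1, 88 and 16 bp from the gene end. Their scores of 4.72, 3.18 and 2.82 were below the list's median of 6.81. Of 15 HSP70 genes, 1 was tfiis-1-higher (mtHsc70-1, at 0.41) and 1 Col-0-higher (BIP1, at 0.97), against 24.4% and 3.67% in their length classes. None of the 7 small heat shock protein genes that could be counted was called, where 10 others listed were left out for want of a symbol. They are short, and in their length classes only 2.61% of genes were tfiis-1-higher and 1.64% were Col-0-higher. Of 12 HSP100 and HSP60 genes, 3 were tfiis-1-higher (against 29.95% in their length classes), namely CLPC1, CPN60B and Cpn60beta3. The last of these was also Col-0-higher, at 0.98 (against 4.61% of genes in the length classes).

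The calls in these groups at other times went in both directions. Over all genes the tfiis-1-higher share was 4.90% without heat shock, 10.9% after 10 min, 16.6% after 30 min and 23.7% after 3 h. Of the 7 HSP90 genes, 5 were tfiis-1-higher after 10 min and 6 after 3 h, with 0 at both 0 min and 30 min. Col-0-higher calls were made in 2, 3 and 4 of them at 10 min, 30 min and 3 h, when 0.251%, 3.16% and 10.8% of all genes were Col-0-higher. HSP70 genes were tfiis-1-higher in 4 of 15 at 10 min, 1 at 30 min and 6 at 3 h, and Col-0-higher in 4, 1 and 8. Of the small heat shock protein genes, 1 was tfiis-1-higher at 10 min and 0 at 3 h, when 3 were Col-0-higher. Of 22 co-chaperones and other heat-response genes, 12, 4 and 14 were tfiis-1-higher at 10 min, 30 min and 3 h, and 2, 5 and 9 were Col-0-higher. Among them Hop1 and SGT1B, co-chaperones of HSP90, had 2 tfiis-1-higher summits each at 30 min, whereas the relatives Hop3 and SGT1A had only a Col-0-higher summit, at 0.93 and 0.97. Of 21 heat shock transcription factor genes, 1 was tfiis-1-higher at 30 min (RHA1) and 2 were Col-0-higher (HSFA3 and HSFB2A), against 9 and 2 at 3 h.

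Genes of the unfolded protein response, which raises the folding capacity of the endoplasmic reticulum, were called in both directions. Of 26 members 12 were tfiis-1-higher (46.2%), 8 were Col-0-higher (30.8%, 14.3 to 51.8%) and 3 were both. Among genes in the members' length classes, 23.8% were tfiis-1-higher and 3.65% Col-0-higher. Chaperones of the reticulum were divided. Col-0-higher summits lay in CRT1b (calreticulin) at 0.96, BIP1 at 0.97 and CNX1 (calnexin, AT5G61790, chromosome 5, 24827063 to 24829900) at 0.34, 0.67 and 0.98. The calreticulin CRT1a and SHD were likewise Col-0-higher alone, and PDIL2-3 and SDF2 were in both lists. BIP1 and SHD were also counted among the HSP70 and HSP90 genes above. The calreticulin CRT3, the protein disulfide isomerase genes PDIL1-1, PDIL1-2 and PDIL2-2 and the co-chaperone ATERDJ3B were tfiis-1-higher alone, while BIP2, BIP3, P58IPK and ATERDJ3A were in neither list. Of the membrane-bound regulators, BZIP17 and BZIP28 had 3 and 2 tfiis-1-higher summits and no Col-0-higher one, and BZIP60 had 1 of each, the Col-0-higher one at 0.97. EBS5, of the pathway that degrades misfolded proteins, had 4.

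Among genes for RNA synthesis and processing, the shares differed from group to group. In the core spliceosome 13 of 15 members were tfiis-1-higher (86.7%, 59.5 to 98.3%), against 31.8% of genes in their length classes. SUS2 (AT1G80070), the PRP8 homolog at the centre of the spliceosome, had 5 summits from 0.07 to 0.77. The only Col-0-higher member was EMB2770, with a summit at 0.05 and no other gene within 500 bp. Of 20 SR genes, which encode serine/arginine-rich splicing regulators, 11 were tfiis-1-higher and 3 were Col-0-higher, against 22.6% and 3.40% in their length classes. SR34a and RS41 were both, each with 3 tfiis-1-higher summits before a Col-0-higher one at 0.99 and 0.97. All 3 listed members of nonsense-mediated decay were tfiis-1-higher (35.4% in their length classes), among them LBA1 (AT5G47010, the UPF1 helicase) with 7 summits from 0.09 to 0.83.

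Of 23 transcript elongation factor genes, 8 were tfiis-1-higher (34.8%), against 29.5% of genes in their length classes. GTA2 (AT4G08350), an SPT5 homolog that travels with RNAPII, had 5 summits from 0.05 to 0.59, ELF7 of the PAF1 complex had 4 and the histone chaperone SPT16 had 3. GTB1 (AT1G65440, chromosome 1, 24306545 to 24314639), an SPT6 homolog, was the only Col-0-higher gene of the group. It had 3 summits at 0.75, 0.88 and 0.99, the last with a score of 22.7, and no tfiis-1-higher one at 30 min. Of 17 polymerase subunit genes 4 were tfiis-1-higher (23.53%, against 21.4% in their length classes). NRPB1 (AT4G35800, chromosome 4, 16960558 to 16968128), the largest subunit, which carries the phosphorylated domain, had tfiis-1-higher summits at 0.22 and 0.48 and a Col-0-higher one at 0.99 with a score of 23.63. NRPB2 had 4 tfiis-1-higher summits from 0.16 to 0.71. Of 23 genes for cleavage, polyadenylation and termination, 10 were tfiis-1-higher (43.5%, against 34.9% in their length classes). Col-0-higher calls were made in 0 of them (upper limit 14.8%), against 7.36%. The poly(A) polymerase gene nPAP had 6 tfiis-1-higher summits.

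Giant genes and chromatin remodelers included genes with both directions. Of all genes over 8000 bp, 13.9% were in both lists. A list of 11 genes, with a median length of 11171 bp, held PIKK-family genes, HECT ubiquitin ligase genes and BIG. Of these 11, 7 were tfiis-1-higher and 4 of those also Col-0-higher, with BIG in both counts. Among genes in their length classes, 50.04% were tfiis-1-higher and 14.4% Col-0-higher. KAK (AT4G38600), a HECT ligase, had 5 tfiis-1-higher summits from 0.40 to 0.86 and a Col-0-higher one at 0.96. BIG (AT3G02260, 17804 bp), needed for auxin transport, had tfiis-1-higher summits 816 and 1965 bp from the start and a Col-0-higher one at 17700 bp. Of 14 SNF2 remodeler genes 7 were tfiis-1-higher and 3 of those also Col-0-higher. In their length classes 46.4% of genes were tfiis-1-higher and 12.5% Col-0-higher. SYD (AT2G28290) had tfiis-1-higher summits at 293, 1998 and 2884 bp and a Col-0-higher one at 16872 bp with a score of 23.9. BRM, of the same subfamily, had 6 tfiis-1-higher summits from 0.06 to 0.89 and no Col-0-higher one.

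**Figure D5:**
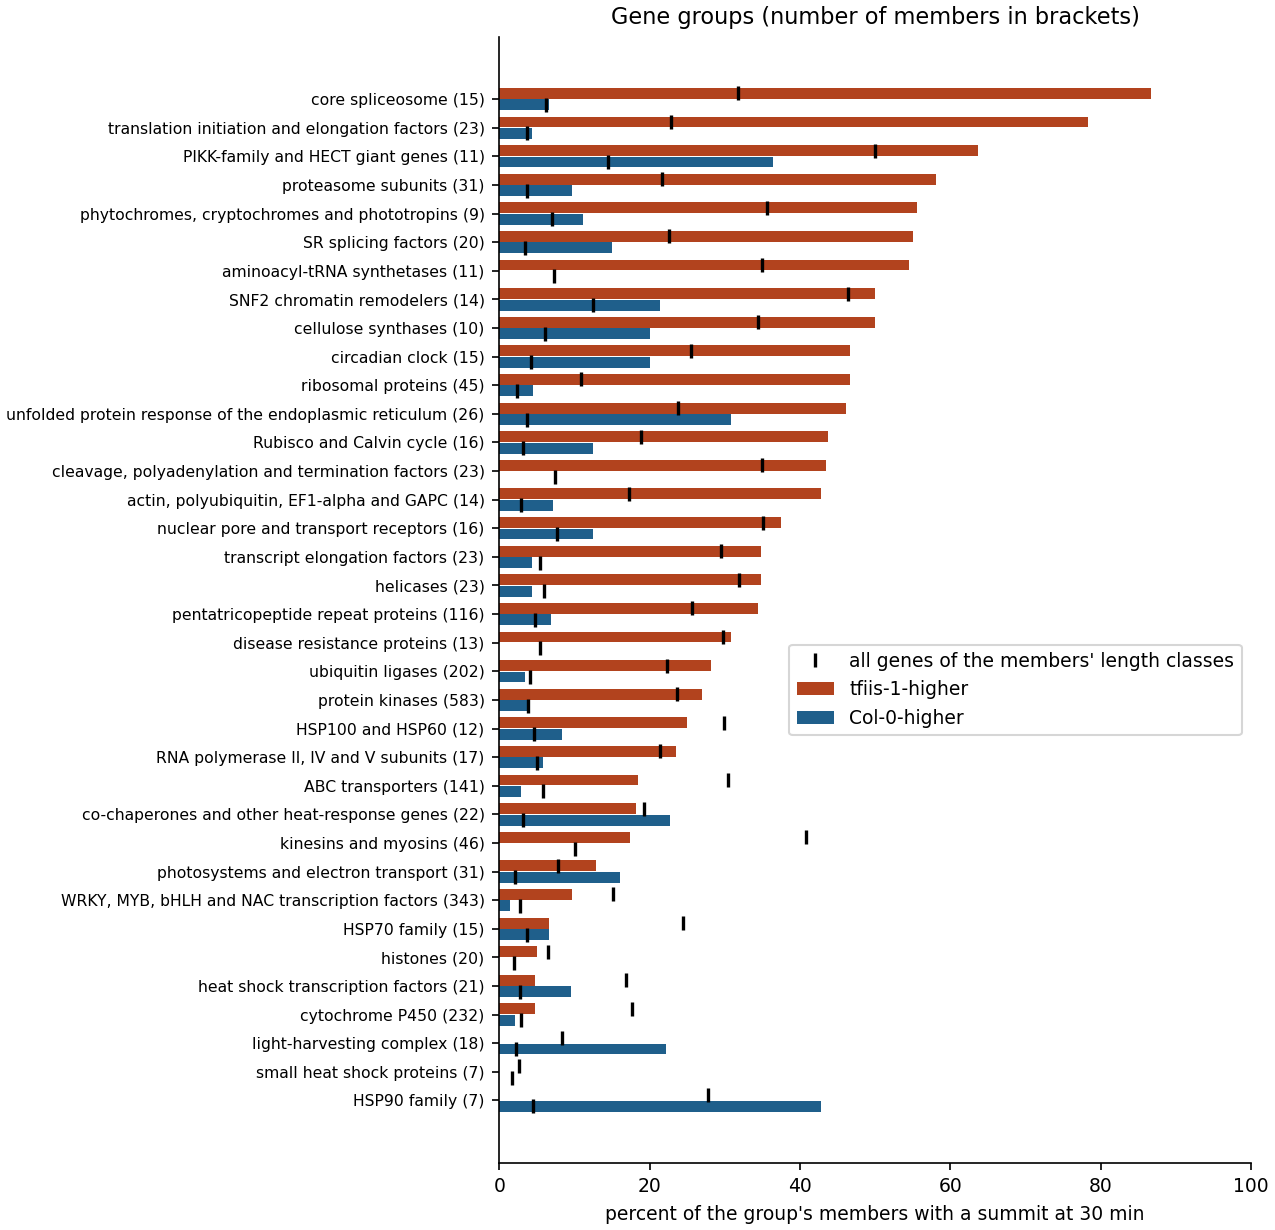
Percent of the members of each gene group with a tfiis-1-higher (red) or Col-0-higher (blue) summit at 30 min, for the 36 groups with at least 7 members; black marks give the percent among all genes of the members' length classes. Core spliceosome genes reach 86.7% tfiis-1-higher, and the light-harvesting complex and HSP90 groups have Col-0-higher members and 0 tfiis-1-higher ones.

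Photosynthesis genes were called in both directions. Of the 18 light-harvesting complex genes, which encode the antenna proteins, 0 were tfiis-1-higher (upper limit 18.53%). The genes are short, and in their length classes only 8.39% of genes were tfiis-1-higher and 2.24% Col-0-higher. Col-0-higher summits lay in 4 of the 18, namely LHCA1, LHCA2, LHB1B1 and LHCB2.1. They sat at 0.97, 0.91, 0.98 and 0.94, with scores of 3.15 or less. All 4 genes had been tfiis-1-higher at 10 min, when 12 of the 18 were, against 10.9% of all genes. At 3 h 10 of the 18 were Col-0-higher, against 10.8% of all genes. Of 31 photosystem and electron transport genes 4 were tfiis-1-higher (7.85% in their length classes). Col-0-higher calls were made in 5 of the 31 (16.1%, against 2.15% in their length classes), including PSAL at 0.97 and PSBQ-2 at 0.79. The Rubisco and Calvin cycle group had 7 of 16 tfiis-1-higher (18.9% in their length classes), including SBPASE at 0.73 and 0.93. It had 2 Col-0-higher (against 3.14% in their length classes), CA1 (a carbonic anhydrase) and RBCS3B (a Rubisco small subunit) at 0.88 and 0.82.

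Clock, light-receptor and wall genes showed both directions. Of 15 circadian clock genes 7 were tfiis-1-higher (25.6% in their length classes). Of these 7, 3 were also Col-0-higher (against 4.25% of genes in the length classes that were Col-0-higher). They were GI (AT1G22770) with 4 tfiis-1-higher summits from 0.10 to 0.59 and a Col-0-higher one at 0.98, PRR7 with a Col-0-higher summit at 0.91, and PCL1 at 0.62. TOC1 and PRR9 had 3 tfiis-1-higher summits each. Of 9 photoreceptor genes 5 were tfiis-1-higher, against 35.6% of genes in their length classes (7.02% for Col-0-higher). They included PHYB (3 summits from 0.57 to 0.95) and CRY1 (3 from 0.12 to 0.69), whereas PHYA had only a Col-0-higher summit, at 0.99. Of 10 cellulose synthase genes 5 were tfiis-1-higher (34.4% in their length classes), with 22 summits between them. CESA1 and CESA6 were both, against a Col-0-higher share of 6.14% in the length classes. Of 14 genes for actin, polyubiquitin, EF1-alpha and GAPC, 6 were tfiis-1-higher (17.3% in their length classes). ACT7 was also Col-0-higher, at 0.95 (2.90% in the length classes).

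Groups taken from annotation words were also read against their length classes, without account of signal level. Translation initiation and elongation factors were tfiis-1-higher in 18 of 23 genes (78.3%) and proteasome subunits in 18 of 31 (58.1%), against 22.8% and 21.6% of genes in their length classes. Ribosomal proteins, cytosolic and organellar ones named in the annotation, were tfiis-1-higher in 21 of 45 (46.7%) although they are short, with 10.8% in their length classes. Cytochrome P450 genes were tfiis-1-higher in 11 of 232 (4.74%, 2.39 to 8.33%), against 17.7% in their length classes. Kinesins and myosins were tfiis-1-higher in 8 of 46 (17.39%) against 40.8%, ABC transporters in 26 of 141 (18.4%) against 30.4%, and WRKY, MYB, bHLH and NAC transcription factors in 33 of 343 (9.62%) against 15.2%. Of 20 histone genes 1 was tfiis-1-higher (5.0%, against 6.56%) and 0 were Col-0-higher (against 2.0%).

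Most tfiis-1-higher genes of 30 min recurred at 3 h, and fewer had been called earlier, when the lists were also shorter. Of all genes, 23.7% were tfiis-1-higher at 3 h, 10.9% at 10 min and 4.90% at 0 min. Of the 4550, 3739 (82.2%) were tfiis-1-higher at 3 h, 1834 (40.3%) at 10 min and 1050 (23.1%) at 0 min. These were 57.5% of the genes listed at 3 h, 61.4% at 10 min and 78.1% at 0 min. In 389 genes (8.55%) a tfiis-1-higher call was made at 30 min and at no other time. Those with the most summits were FEI2 (AT2G35620), a receptor-like kinase, with 5, and SCPL11, SKdZeta, SPL12, CFM3B and SAC8 with 4 each. Of the 867 Col-0-higher genes 554 (63.9%) were Col-0-higher at 3 h (18.7% of that list), when 10.8% of all genes were. Only 14 were at 10 min, when 0.251% of all genes were Col-0-higher, and 3 at 0 min (0.113%).

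Within the same genes, the tfiis-1-higher summits of 30 min sat between those of 10 min and 3 h. In the 1449 genes tfiis-1-higher at all 3 times of heat shock, the median of the genes' positions was 0.77 at 10 min, 0.53 at 30 min and 0.42 at 3 h. From 10 to 30 min the position was further upstream in 1104 of them (76.2%), and from 30 min to 3 h in 1018 (70.3%). In 737 (50.9%) the order held over all 3 times. These genes had 1.39 summits each at 10 min and 2.01 at 30 min. In the 1050 genes also called at 0 min the position was 0.39 at 0 min and 0.51 at 30 min, further downstream in 707 (67.3%). Col-0-higher summits kept their place: in the 554 genes Col-0-higher at 30 min and 3 h the medians were 0.95 and 0.94, with 269 further upstream at 3 h and 283 further downstream.

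Col-0-higher genes of 30 min were also called in the opposite direction at the times before and after. Of the 867, 356 (41.1%) were tfiis-1-higher at 10 min, when 10.9% of all genes were, and they made up 11.9% of the genes listed then. At 3 h 506 (58.4%) were tfiis-1-higher, against 23.7% of all genes, and in 14.2% of these the summits lay within 500 bp of the Col-0-higher ones of 30 min. From the Col-0-higher summit of 30 min, the closest tfiis-1-higher summit was a median of 264.5 bp away at 10 min and 1323.5 bp away at 3 h. For 10 min, in 226 of the 356 (63.5%) a Col-0-higher summit of 30 min lay within 500 bp of a tfiis-1-higher summit of 10 min. The later summit was further downstream in 277 (77.8%), by a median of 227 bp over all 356. In 207 of the 356 the gene was also tfiis-1-higher at 30 min, and the tfiis-1-higher summits then had a median position of 0.43 while the Col-0-higher ones of all 356 genes had a median of 0.96.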

How the data were processed

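Per the submitters' processing notes, Bowtie2, FastQC, MACS3, deepTools and the build TAIR10 were used. Not given in the sources used here are their versions and roles, the calling threshold, scaling between genotypes, use of inputs and pooling of replicates. Per the labels' protocols, formaldehyde-crosslinked chromatin was sheared in a Bioruptor and precipitated with ab5095, and libraries had 9 PCR cycles. Scaling or pooling acts on every call and can change the balance of the directions. The authors deposited summits of 1 bp with gene and strand; the score of the Col-0-higher lists is the authors' value, used only to describe and rank summits within that list.

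Repeated lines (570 tfiis-1-higher, 106 Col-0-higher) were counted once, and 40 summits per list inside 2 overlapping genes were counted in each. Positions came from the RefSeq gene table of TAIR10.1, whose intervals equal those in the Col-0-higher list, and coordinates are printed only from that list. Share intervals are exact (Clopper-Pearson), median intervals are order-statistic, and no test across features was made, because no value per library was used here. The members, gene lists and rules were chosen with earlier results of these data known. Named genes are TFIIS, the 8 genes with the highest Col-0-higher scores, the 8 with the most tfiis-1-higher summits, the 6 with the most in both lists, 6 of reverse order, up to 4 per group and direction, and 6 called tfiis-1-higher only at 30 min; genes named at gene starts (DIM1A and the neighbours of listed genes) and further members of the unfolded protein response were chosen after their values were seen. From the 23 lists of named genes, 28 entries without a symbol in the gene table were left out and 348 kept; 15 further groups came from annotation words. Formulas were tested on simulated data. The software was pandas 2.3.3, matplotlib 3.10.9, scipy 1.17.1 and numpy 2.4.6 under Python 3.11.15.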

Additional observations from a re-analysis of the deposited data

How the results depend on the processing

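No leave-one-out value could be given and depth limits are unknown, since the lists hold no value per library. No paired analysis was possible because the lists hold no replicate columns. Of 45 alternative values 31 stayed within the interval (shares and medians) or within 1.5 times (counts) of the value reported, and 14 moved. None changed direction. The 31 include values that their alternative could not change. The tfiis-1-higher median does not use Col-0-higher scores, and 0 genes up to 1000 bp were in both lists. The tfiis-1-higher share of 90.0% was 89.3% with every line counted, 84.0% with genes counted and 94.7% with the 50% of Col-0-higher summits of highest score. With those summits the Col-0-higher median position was 0.97, the difference of medians (tfiis-1 minus Col-0) -0.46, the last-tenth share 71.5% and the genes in both lists 256. With 1 position per gene the tfiis-1-higher median was 0.53. Within 200 bp of the gene end lay 59.9% of Col-0-higher summits. Where a shared gene also needed summits within 500 bp, the recurrence of tfiis-1-higher genes was 74.3% at 3 h, 28.2% at 10 min and 19.3% at 0 min, that of Col-0-higher genes at 3 h 59.6%, and Col-0-higher genes called tfiis-1-higher at 10 min 26.1%. For these moves the cause was not tested beyond the construction of each alternative.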

Other observations

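Other annotation groups were called at 30 min as follows, beside 16.6% tfiis-1-higher and 3.16% Col-0-higher over all genes. Aminoacyl-tRNA synthetases, which charge tRNAs, were tfiis-1-higher in 6 of 11 genes and Col-0-higher in 0. Pentatricopeptide repeat proteins, which act on organellar RNA, were tfiis-1-higher in 40 of 116 (34.5%, against 25.6% of genes in their length classes) and Col-0-higher in 8, at a median position of 0.98. Protein kinases were tfiis-1-higher in 157 of 583 (26.9%, against 23.7%) and Col-0-higher in 23. Ubiquitin ligases were tfiis-1-higher in 57 of 202 (28.2%, against 22.3%) and Col-0-higher in 7. Helicases were tfiis-1-higher in 8 of 23, nuclear pore and transport receptor genes in 6 of 16 and disease resistance genes in 4 of 13. Those 3 shares were 34.8%, 37.5% and 30.8%, against 31.9%, 35.1% and 29.8% in their length classes.

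At least 2 annotated transcripts were listed for 65.8% of the genes in both lists, 55.7% of genes that were tfiis-1-higher alone, 46.4% of genes that were Col-0-higher alone and 39.0% of all protein-coding genes. Genes in both lists were also longer (median 3845 bp), and the part of gene length in these shares was not tested.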
